A study of Homo sapiens with 6 samples.

Results

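The genes described here are the G1 cyclins CCND1, CCND2, CCND3, CCNE1 and CCNE2, their kinases CDK2, CDK4 and CDK6, the phosphatase CDC25A and the ubiquitin ligase subunit SKP2. They were chosen by symbol, with earlier results of these data known. All 10 were found among 19775 genes on the arrays, measured by 29 probe sets. MCF10A is an established cell line of human breast epithelium that does not form tumours. It was plated at 50K, 100K, 200K, 400K, 600K or 800K cells per 35 mm dish, and total RNA was taken after 24 h. All 6 densities shared 1 medium with 20 ng/ml EGF, 100 ng/ml cholera toxin, 0.5 μg/ml hydrocortisone, 10 μg/ml insulin and 5% horse serum. A single Affymetrix array (HG-U133 Plus 2) stands for each density, without replicates. The deposited values divide each probe set by its value at 50K, so a value of 1 (0 on the log2 scale) is the 50K level and no absolute level is known.

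D-type cyclins are made in response to growth factors and bind CDK4 and CDK6, and the active kinases phosphorylate the retinoblastoma protein and thereby release E2F transcription factors. E2F factors in turn drive CCNE1 and CCNE2, whose products activate CDK2 at the entry into S phase. CDC25A removes inhibitory phosphates from CDK2, and SKP2 is the substrate receptor of the SCF ubiquitin ligase that marks the inhibitor CDKN1B for destruction. In untransformed epithelial cells this machinery is known to be lowered when cells meet their neighbours and stop dividing.

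The comparison of the series, expression against plating density, was fitted for every gene as the slope of the log2 ratio per doubling of the cells plated (limma, Benjamini-Hochberg adjustment over all genes, threshold 0.05). A gene is the mean of the log2 ratios of its probe sets. Errors after ± are standard errors over 6 arrays, with variances moderated by limma across all genes, or across all probe sets. Those of differences between 2 genes are ordinary residual standard errors. Of the 10 genes, 7 fell (CCND1, CCNE1, CCNE2, CDK2, CDK6, CDC25A and SKP2), 1 rose (CCND3) and 2 did not pass (CCND2 and CDK4). Among all genes 12.4% fell and 8.93% rose, 21.3% in either direction. Without the 50K array 8 of the 10 fell (8.55% of all genes), without 200K or 400K 7 (11.5% and 10.6%), and without 100K, 600K or 800K 6 (8.42%, 7.09% and 6.89%). Without probe sets of the suffixes _x_at and _s_at, which can cross-hybridise or match several transcripts, 7 of the genes could be tested and 6 fell, against 8.81% of genes. Of their 29 single probe sets 18 fell (7.96% of all 54613) and 1 rose (5.94%). The number that fell was 10 without 100K (4.27%), 8 without 600K (3.05%) and 8 without 800K (2.78%). The median slope was −0.27 over the 10 genes and 0.0045 over all genes. At 800K 7 of the 10 were lower than at 50K by 2-fold or more, against 2.69% of all genes, and 1 was higher by 2-fold or more, against 2.25%. Of the 7, all but CCNE2 and CDC25A lay close to this cut-off, from 2.005-fold (CDK2) to 2.09-fold (CCND1) lower. These differences between single arrays have no test. RNA of whole cultures was measured, so fewer cells in the phase that makes a transcript and less of it per cell cannot be told apart.

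**Figure D1:**
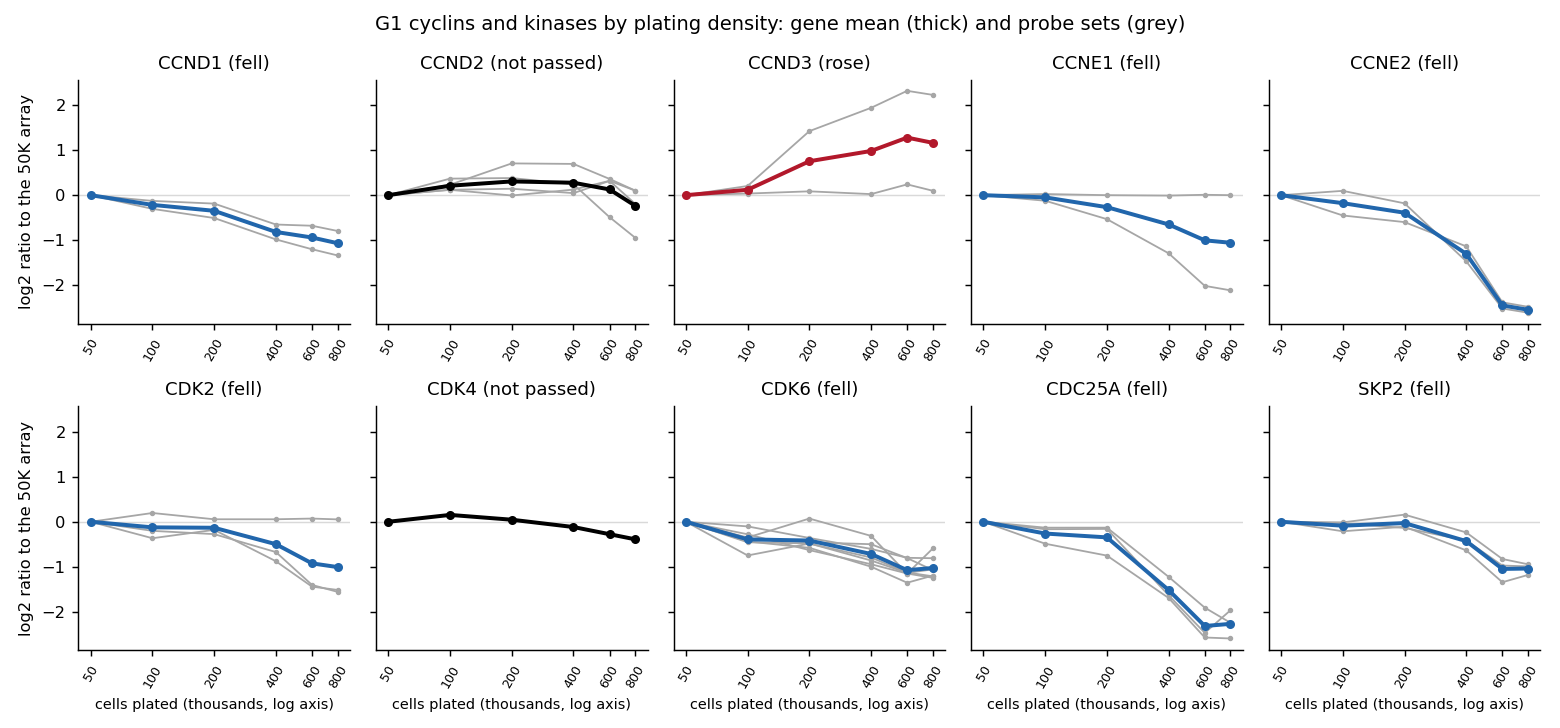
Log2 ratio to the 50K array (vertical axis) against cells plated (horizontal axis, log scale), 1 panel per gene; thick lines are gene means (blue fell, red rose, black did not pass), grey lines single probe sets, and each point is 1 array. CCNE2 and CDC25A reached the lowest gene means, −2.54 and −2.26 at 800K, while CCND3, CCNE1 and CDK2 each held a probe set that stayed near 0.

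Several measures of the arrays as such moved with density or set the 50K array apart. On the 5 arrays above 50K the median ratio of all probe sets other than controls was 1.013 to 1.036. The log2 difference between the 3′ and 5′ control probe sets of ACTB exceeded its 50K value by 0.17 at 400K, by 0.22 at 600K and by 0.30 at 800K, while that of GAPDH stayed between −0.05 and 0.07. The 12 probe sets for poly-A RNA added before labelling had median log2 ratios from −0.48 to −0.17. Of 13 measured markers of fibroblasts, endothelial cells and leukocytes, 4 rose and none fell. The risen markers, named after their values were seen, were DCN, PECAM1, KDR and CD14, with ratios of 1.28, 1.41, 1.73 and 5.66 at 800K. The mean ratio of the measured markers ranged over the 6 arrays from 1 to 1.09 for 6 of fibroblasts, from 1 to 1.32 for 4 of endothelial cells and from 1 to 2.71 for 3 of leukocytes. Of 8 measured epithelial markers 3 rose (KRT5, KRT14 and CDH1) and 1 fell (ITGA6), named in the same way. Ratios show changes and not presence, so the cell type itself could not be checked on them. With each array centred on its median the same counts of the 10 genes were found, 7 falls and 1 rise, and CCND1 had a slope of −0.28. The part of the control probe sets and of the markers in the results was not tested.

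CCND1, the D cyclin most directly induced by growth factor signalling, fell and was lower at each step of density. Its ratios to 50K were 0.861, 0.787, 0.568, 0.522 and 0.478, given here and for the following genes in the order 100K, 200K, 400K, 600K, 800K. The array at 50K was thus the highest and that at 800K the lowest, 2.09-fold below it. The slope was −0.27 ± 0.02 log2 units per doubling (adjusted p = 0.00156). Both of its probe sets fell, with ratios of 0.396 and 0.577 at 800K. It was among 4 of the 10 genes, with CCNE1, CCNE2 and CDK2, that were lower at every step of density, as 3.53% of all genes were.

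CCND2 and CCND3 did not follow CCND1. For CCND2 the ratio was 1.16, 1.24, 1.21, 1.09 and 0.851, highest in the middle of the range and lowest at 800K, and the slope of −0.03 ± 0.05 did not pass (adjusted p = 0.788). Its 4 probe sets disagreed most at 800K, where their log2 ratios ran from −0.94 (200951_s_at) to 0.10. None of them passed, and the slope turned positive without the 800K array (0.04). CCND3 had ratios of 1.09, 1.68, 1.97, 2.42 and 2.23, so that the 4 arrays from 200K upwards lay above the 2 below. Its slope was 0.34 ± 0.03 (adjusted p = 0.00301).

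The rise of CCND3 came from 1 of its 2 probe sets. Probe set 1562028_at had ratios of 1.15, 2.67, 3.82, 4.97 and 4.67 from 100K to 800K and rose with a slope of 0.64 ± 0.06 (adjusted p = 0.00572 over all probe sets). Probe set 201700_at had ratios between 1.02 and 1.18 on the same arrays, with a slope of 0.04 ± 0.02 that did not pass (adjusted p = 0.361). The probe set annotation names a RefSeq mRNA of CCND3 for 201700_at and a different sequence record for 1562028_at. It gives no positions of the probes, so which form of CCND3 the higher signal belongs to is unknown. The RefSeq table used here holds 3 promoter windows for CCND3.

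The differences among D cyclins were tested within arrays, as the slope of the difference in log2 ratio, by exact permutation of the densities over their 720 orders, two-sided, adjusted over 5 pairs. The smallest p these orders can give is 0.00139. The pairs, too, were chosen with earlier results of these data known. CCND1 fell against CCND3 by 0.61 ± 0.04 per doubling (exact permutation p = 0.00139, adjusted 0.00694), and at 800K the balance had shifted 4.67-fold toward CCND3. With CCND3 read by 201700_at alone, an alternative added after the data were examined, the difference was −0.31 ± 0.03 (exact permutation p = 0.00278, adjusted 0.0139) and the shift 2.24-fold. Over all combinations of single probe sets CCND1 had the lower slope than CCND3 in 4 of 4 and than CCND2 in 7 of 8, and CCND2 the lower slope than CCND3 in 6 of 8. Such combinations share probe sets and arrays and are not replicates. For CCND1 minus CCND2 the slope was −0.24 ± 0.06 (exact permutation p = 0.0167, adjusted 0.0194), but this pair did not pass without the 50K (adjusted 0.167), 100K (0.0667), 200K (0.05) or 600K array (0.0667), nor on the plain cell number (0.0944). CCND2 minus CCND3 gave −0.37 ± 0.06 (exact permutation p = 0.00556, adjusted 0.0139) and −0.07 ± 0.06 (adjusted 0.344) with CCND3 read by 201700_at alone. Without the 600K array both pairs with CCND3 had an adjusted p of 0.0556.

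**Figure D2:**
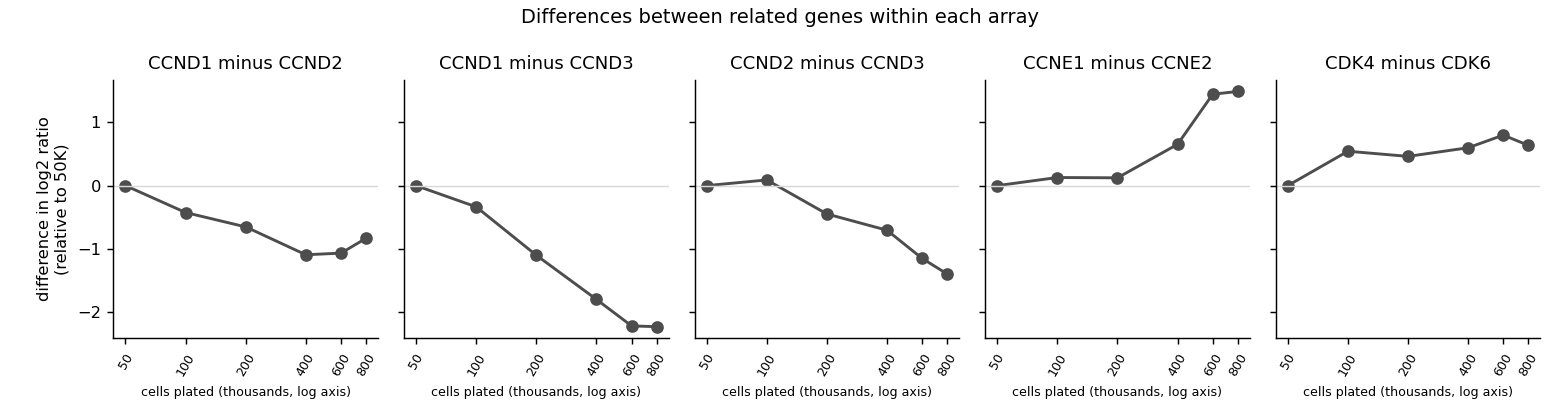
Difference in log2 ratio between 2 related genes within each array, relative to 50K (vertical axis), against cells plated (horizontal axis, log scale); each point is 1 array. CCND1 minus CCND3 went down to −2.22 at 800K, CCNE1 minus CCNE2 up to 1.48 at 800K, and CDK4 minus CDK6 was already 0.54 at 100K.

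Of the kinases of the D cyclins CDK6 fell and CDK4 did not pass. CDK6 had ratios of 0.763, 0.750, 0.610, 0.476 and 0.492, with all 5 arrays below 50K. Its slope was −0.26 ± 0.03 (adjusted p = 0.00362), and 6 of its 7 probe sets fell, the other being 231198_at (−0.19 ± 0.09, adjusted p = 0.242). CDK4 was measured by 1 probe set, with ratios of 1.11, 1.03, 0.922, 0.826 and 0.764. The 3 arrays of highest density thus lay below 50K and the other 2 above it. Its slope was −0.11 ± 0.03 and did not pass (adjusted p = 0.0573). It passed when density was taken as the plain cell number (adjusted p = 0.00728), on ranks (0.0275) and without the 50K array (slope −0.18, adjusted p = 0.0124). CDK4 minus CDK6 had a slope of 0.15 ± 0.05 (exact permutation p = 0.0153, adjusted 0.0194). The 1 probe set of CDK4 had a higher slope than 7 of 7 probe sets of CDK6. These share the same arrays and are not replicates. On the plain cell number, on which CDK4 itself passed, the pair did not (adjusted 0.0944). Most of that difference was already present at 100K, and without the 50K array the slope was 0.07 (adjusted 0.208); the pair also missed the threshold without 600K (adjusted 0.0667).

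By the mean of their probe sets CCNE2 and CDC25A had the deepest falls of the 10 genes, and 1 probe set of CCNE1 reached a like depth. CCNE2 had ratios of 0.885, 0.764, 0.406, 0.184 and 0.172, 5.81-fold below 50K at the end. The 2 arrays at 600K and 800K lay far below the 3 lowest densities, with 400K between them. Of all 19775 genes, CCNE2 ranked 22 from the most negative slope (−0.68 ± 0.11, adjusted p = 0.00901), and both of its probe sets fell. CDC25A ranked 29, with ratios of 0.835, 0.787, 0.350, 0.202 and 0.208. Its slope was −0.63 ± 0.09 (adjusted p = 0.00726), and its 3 probe sets fell, to ratios of 0.167, 0.212 and 0.257 at 800K.

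CCNE1 had ratios of 0.967, 0.832, 0.638, 0.500 and 0.482, and a slope of −0.29 ± 0.03 (adjusted p = 0.00437). This mean joins unlike probe sets. Probe set 213523_at had ratios of 0.918, 0.692, 0.409, 0.248 and 0.232 from 100K to 800K, with a slope of −0.58 ± 0.07 (adjusted p = 0.00812). The log2 ratio of 242105_at spanned only 0.034 over all 6 arrays, and whether it was above background cannot be read from ratios. The slope of CCNE1 minus CCNE2 was 0.39 ± 0.09 (exact permutation p = 0.0194, adjusted 0.0194). With CCNE1 read by 213523_at alone, likewise an alternative added after the data were examined, it was 0.11 ± 0.06 (exact permutation p = 0.144, adjusted 0.144), so that the difference between the E cyclins did not hold with this probe set. The pair of gene means did not pass without the 50K (adjusted 0.0833), 200K (0.05), 600K (0.0556) or 800K array (0.0667). By the same permutation test it passed on the plain cell number (adjusted 0.00694) and on ranks (0.00926). CCNE1 had the higher slope than CCNE2 in 4 of 4 combinations of single probe sets, by 0.047 to 0.74. In those with the near flat 242105_at this direction follows from the fall of both CCNE2 probe sets. The combinations with 213523_at belong to the difference that did not pass above.

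Sequence upstream of the start was taken from RefSeq (GRCh38.p14) for 6 of the 10 genes: CCND3, CCNE1, CDC25A, CDK4, CDK6 and SKP2. It is shown for 3 genes of different behaviour, CDC25A (deep fall), CCNE1 (fall in 1 of 2 probe sets) and CDK4 (not passed), as the 250 bases before the start, 5′ to 3′ on the strand of the gene. An E2F motif was searched as TTTCGCGC, TTTGGCGC, TTTCCCGC or TTTGCCGC, an E-box as CACGTG and a GC box as GGGCGG, all on both strands. In these windows no hits of different motifs overlapped. Capitals mark the E2F motif in CDC25A, the E-boxes in CDK4 and the GC boxes in CCNE1.
CDC25A (chr3:48188418-48188667, minus strand): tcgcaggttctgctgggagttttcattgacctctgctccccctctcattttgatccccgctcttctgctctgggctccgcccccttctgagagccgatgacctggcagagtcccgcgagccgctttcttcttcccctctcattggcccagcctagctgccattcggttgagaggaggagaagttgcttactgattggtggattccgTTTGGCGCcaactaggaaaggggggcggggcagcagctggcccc
CDK4 (chr12:57752311-57752560, minus strand): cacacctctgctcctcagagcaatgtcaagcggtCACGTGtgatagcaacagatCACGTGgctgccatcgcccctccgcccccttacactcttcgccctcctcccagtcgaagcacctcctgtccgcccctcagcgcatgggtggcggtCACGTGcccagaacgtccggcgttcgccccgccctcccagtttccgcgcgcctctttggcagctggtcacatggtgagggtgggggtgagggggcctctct
CCNE1 (chr19:29811741-29811990, plus strand): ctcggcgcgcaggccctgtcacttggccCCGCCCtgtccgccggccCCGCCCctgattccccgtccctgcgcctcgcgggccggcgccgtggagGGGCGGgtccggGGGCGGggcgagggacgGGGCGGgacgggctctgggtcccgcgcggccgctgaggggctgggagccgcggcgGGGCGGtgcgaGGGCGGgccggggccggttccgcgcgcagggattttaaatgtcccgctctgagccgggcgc

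CDC25A held 1 E2F motif, beginning 44 bases before the start, and was the only 1 of the 6 genes with these letters in the window; 2.79% of 35116 RefSeq windows of this length hold one. CDK4 held 3 E-boxes, as few windows do (0.0797%; 6.34% hold at least 1). CCNE1 held 7 GC boxes, and 42.6% of windows hold at least 1 and 4.15% at least 5. Each of the other genes also held GC boxes in at least 1 window. CDC25A held 2 and CDK4 3, left without capitals above, and 1 window of CCND3 held 5. Such matches describe letters and are not binding sites, and the absence of a motif says only that these letters are not in the window.

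CDK2, the kinase of the E cyclins, had ratios of 0.918, 0.912, 0.709, 0.528 and 0.499. The arrays at 100K and 200K lay just below 50K, and the next 3 lay further below. The slope was −0.26 ± 0.04 (adjusted p = 0.0111). Here too 1 of 3 probe sets, 211803_at, was near flat (slope 0.00, adjusted p = 0.965), while the others had ratios of 0.341 and 0.351 at 800K.

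SKP2 had ratios of 0.941, 0.980, 0.743, 0.485 and 0.488. The arrays at 100K and 200K were close to 50K, and those at 600K and 800K were the lowest. Its slope was −0.28 ± 0.06 (adjusted p = 0.0251), and 2 of its 3 probe sets fell. The call of SKP2 was lost without the 100K (adjusted p = 0.0777), 600K (0.0705) or 800K array (0.101). The other 6 falling genes and CCND3 passed with each array left out in turn, CDK2 with the highest adjusted p (0.0492).

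**Figure D3:**
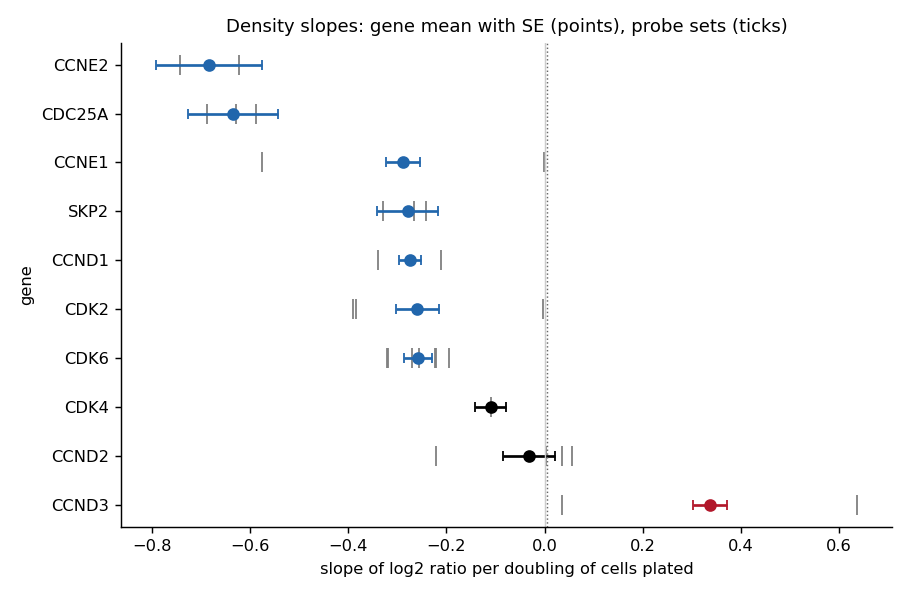
Slope of the log2 ratio per doubling of cells plated (horizontal axis) for each gene; points with bars are gene means with their standard errors (blue fell, red rose, black did not pass), grey ticks are single probe sets, and the dotted line is the median of all genes. CCNE2 and CDC25A stand at −0.68 and −0.63, 5 other falling genes between −0.29 and −0.26, and the probe sets of CCND3 and CCNE1 lie far apart.

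The falling genes reached their change at different points of the density range, described here from single arrays without a test. At 200K CDK6 had made 40.6% of its log2 change between 50K and 800K, CCND1 32.5% and CCNE1 25.2%. For CCNE2 and CDC25A the share was 15.3%, for CDK2 13.2% and for SKP2 2.82%. By 400K the shares ran from 41.4% (SKP2) to 76.6% (CCND1), and at 600K from 88.1% (CCND1) to 105% (CDK6). The largest step between neighbouring arrays was from 50K to 100K for CDK6, from 200K to 400K for CCND1, CCNE1 and CDC25A, and from 400K to 600K for CCNE2, CDK2 and SKP2. From 600K to 800K the falling genes moved by −0.13 to 0.05 log2 units. Neighbouring arrays lie a doubling apart up to 400K and less than a doubling apart above it. The size of these steps is therefore not a slope per doubling. Per doubling, the step from 400K to 600K was the steepest for CCNE1, CCNE2, CDK2, CDK6, CDC25A and SKP2. For CCND1 it was the step from 200K to 400K. All 10 quadratic terms of a fit on log2 of the cells plated were negative, as were 61.6% of those of all genes; in a falling gene a negative term is a steeper fall at high density. In limma none of the 10 passed for this term, nor did any of the 19775 genes (0.0%). At an unadjusted p under 0.05 there were 7 of the 10 (all but CCND1, CCND3 and CDK6). Of all 19775 genes 6.8% had both such a p and a negative term.

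Across the 6 arrays Pearson r among the 7 falling genes ran from 0.922 (CCND1 and SKP2) to 0.998 (CCNE2 and CDK2). CCND3 had r with them from −0.944 (CCND1) to −0.840 (SKP2), and CCND2 had r between −0.133 and 0.655 with the other 9. Genes called for a trend over the same arrays must correlate, so the sign and size of these values follow from the calls; the 6 points also share their arrays and the 50K reference. Among all genes, the one nearest to CCNE2 by the root mean square difference of the 6 log2 ratios was CDC25A (0.157, r = 0.991), and CCNE2 was in turn the nearest to CDC25A. Next came the tubulin genes TUBA4A for CCNE2 (0.158) and TUBB2A for CDC25A (0.177). Nearest to CCND1 were TTI2 (0.0336) and CENPI (0.0428), to CCNE1 CDR2 and KPNA3, to CDK2 BCL2L12 and FAM168B, to CDK6 NABP1 and RFK, and to SKP2 NR2C2AP and GEMIN5. Those 10 genes lay within 0.0680 of their partner, with r of 0.988 or more. ADGRG1 and LY6E were nearest to CCND3 (0.0880 and 0.0944).

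Of 62 measured genes in 7 lists of partners and targets of the G1 cyclins, 24 fell, 9 rose and 29 did not pass. Over all genes 12.4% fell and 8.93% rose, and these shares stand beside the counts of each list below. The number that fell was 11 without the 100K or the 600K array, where 8.42% and 7.09% of all genes fell. It was 13 without 800K (6.89% of all genes), and there 4 rose (1026 of all 19775 genes). The lists are taken in the order of the pathway, from growth factor signalling to S phase.

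Of 10 targets of ERK signalling, which links EGF to CCND1, 4 fell, 3 rose and 3 did not pass (median slope −0.01). FOSL1, an AP-1 subunit, fell to a ratio of 0.394 at 800K (slope −0.38 ± 0.05), and the immediate early factor EGR1 rose to 3.58 (0.44 ± 0.10). The call of EGR1 was lost when 100K (adjusted p = 0.0802), 600K (0.0806) or 800K (0.0924) was left out, and without 50K 2 of the list fell (8.55% of all genes). Of 6 measured CDK inhibitors 1 rose, none fell and 5 did not pass (median slope 0.01), and without 100K 1 of them fell (8.42% of all genes). The risen one was CDKN1C, which binds cyclin-CDK complexes, with ratios of 1.44, 1.99, 2.71, 3.91 and 4.54 from 100K to 800K. CDKN1B, the inhibitor that SKP2 marks, had a slope of 0.10 ± 0.05 (adjusted p = 0.195) and CDKN1A one of −0.03 ± 0.03 (adjusted p = 0.649). CDKN2A and CDKN2B, whose locus MCF10A is known to lack, had slopes of 0.02 ± 0.02 and 0.0032 ± 0.0127. These 4 were picked with their values in view.

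The CDK-activating kinase and the CDK chaperone gave 1 fall, 1 rise and 2 genes that did not pass (median slope −0.05). CDC37, which loads kinases such as CDK4 onto HSP90, fell to 0.695 (slope −0.13 ± 0.01), and CDK7, the catalytic subunit of the activating kinase, rose to 1.45 (0.14 ± 0.02; adjusted p = 0.051 without 800K). Of 10 ubiquitin ligase partners of SKP2 and factors of cyclin turnover, 1 rose, none fell and 9 did not pass (median slope 0.0012). The 1 rise is near the share of all genes that rose (8.93%). FBXO4, an F-box protein, had a ratio of 1.28 at 800K and a slope of 0.07 ± 0.02, with adjusted p = 0.104 without 50K and 0.0889 without 800K. In this list 1 gene fell on the plain cell number (2541 of all 19775 genes) and 1 on ranks (2613 of all genes). Without probe sets of the suffixes _x_at and _s_at 1 fell (8.81% of all genes) and 2 rose (1157 of all 17098 genes left). SKP2 thus fell while none of the 4 measured genes for the rest of its ligase (SKP1, CUL1, RBX1 and CKS1B, named after their values were seen) passed. CKS1B, the cofactor of SKP2 for CDKN1B, had a slope of −0.18 ± 0.06 (adjusted p = 0.0771), and the differences between SKP2 and these genes were not tested.

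Of 10 pocket proteins and E2F factors, 4 fell, 2 rose and 4 did not pass (median slope −0.08). E2F1, an activator of S phase genes, fell to 0.483 at 800K (slope −0.29 ± 0.04), and RBL2, the pocket protein of resting cells, rose to 1.72 (0.25 ± 0.05). In this list 1 gene rose without 200K (1627 of all 19775 genes) or without 400K (1595 of all genes). None rose when 100K, 600K or 800K was left out (1288, 1045 and 1026 of all genes), with an adjusted p of 0.0508, 0.065 or 0.0782 for RBL2. Of 13 measured S phase targets of E2F, 10 fell, none rose and 3 did not pass (median slope −0.31). The ratios at 800K were 0.161 for RRM2, a ribonucleotide reductase subunit, and 0.203 for CDC6, a factor of origin licensing. In this list 2 fell without 100K or without 600K and 4 without 800K, and CDC6 had adjusted p between 0.0531 and 0.0587 there. Of 9 later cyclins, CDK1 and its regulators, 5 fell, 1 rose and 3 did not pass (median slope −0.18). PKMYT1, an inhibitory kinase of CDK1, fell to 0.261 and CCNF, the cyclin that is also an F-box protein, to 0.333. Without 100K or 600K 1 of these genes fell and without 800K 2. PKMYT1 did not pass without 100K, 600K or 800K (adjusted p up to 0.0777), nor CCNF without 50K, 100K or 600K (up to 0.0586). CDC25B, the relative of CDC25A that acts in late G2, was the gene of this list that rose (0.21 ± 0.02, adjusted p = 0.00264); it was picked with its value in view, and its difference from CDC25A was not tested.

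**Figure D4:**
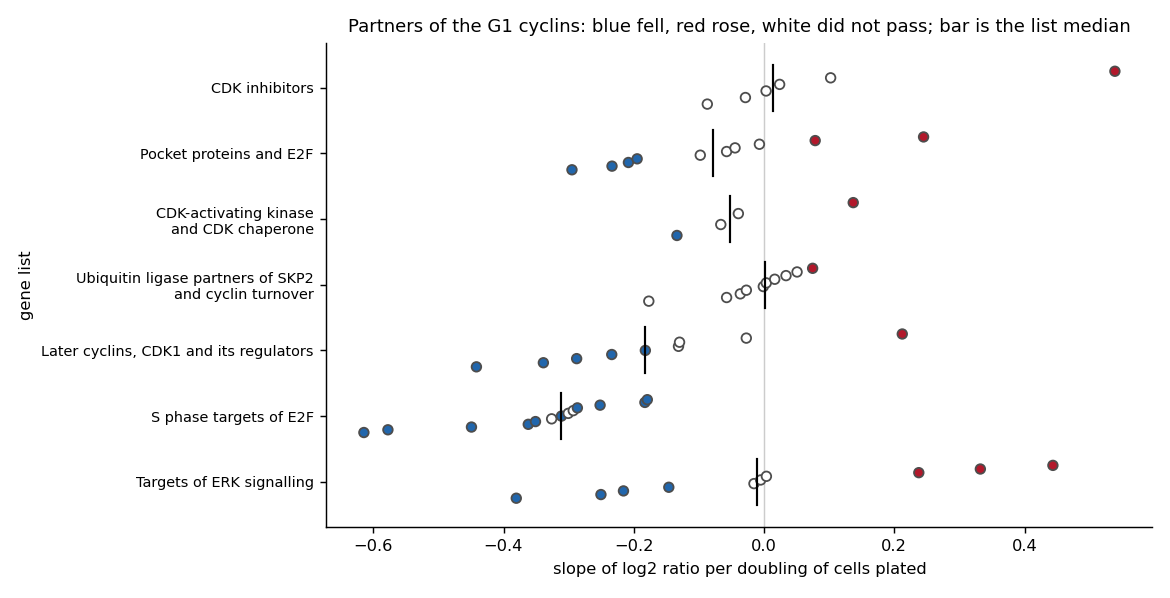
Slope of the log2 ratio per doubling of cells plated (horizontal axis) for the 62 measured genes of 7 lists (rows); each point is 1 gene, blue fell, red rose, white did not pass, and black bars are list medians. The S phase targets of E2F lie below 0 throughout, with a median of −0.31, while the ubiquitin ligase partners of SKP2 lie between −0.18 and 0.07.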

How the data were processed

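Biotin-labelled total RNA (200 ng input) was hybridised, per the labels' protocols, to HG-U133 Plus 2 arrays. RMA is named in the submitters' processing notes, without a version. The deposited values are linear ratios to the 50K array: all 54675 values of that column equal 1 within 1e-06. No source used here states the step that formed these ratios, and signal over background is unknown, so a fall to the array's background would be understated. Of 41097 probe sets with 1 symbol, 41043 were matched to RefSeq by gene identifier. Ratios were taken to log2 with no pseudocount or filter and averaged per gene. Slopes, with 4 residual degrees of freedom, and quadratic terms came from limma 3.58.1 in R 4.3.3, without a mean-variance trend. For the gene slopes the moderated variance added 2.005 prior degrees of freedom. P-values measure scatter around the fit of 6 arrays without replicates; no source used here states how many dishes an array holds. The members, lists and pairs were chosen with earlier results of these data known. Of each list the 2 called genes with the largest slopes were named, and for each called member the 2 nearest genes; the text marks genes named outside this rule. On simulated data for the 19775 genes, the density trend recovered 82% of 100 genes changed 2-fold and 99% of 100 changed 4-fold, with 10 false calls, and the quadratic term 80.5% of 200 genes. The simulated quadratic terms were larger in size than that of any of the 10 genes, of which CCNE2 had the largest (−0.80). Their share recovered therefore does not hold for the terms of these genes. The simulated scatter was independent between genes. Alternatives were other probe set choices, median centring, other density scales, 3 lowest against 3 highest densities, and leaving out each array.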

Additional observations from a re-analysis of the deposited data

How the results depend on the processing

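The 7 falls and 1 rise among the G1 cyclins and kinases became 6 to 8 falls and 1 rise with an array left out, and 0 rises for the 3 lowest against the 3 highest densities (CCND3 adjusted p = 0.0535). CCND2 had a slope of 0.019 by the median of its probe sets, and with an array left out from −0.12 to 0.041. CCND2, CDK4 and SKP2 have no probe set left without the suffixes _x_at and _s_at, so that only 2 of the 5 pairs could be computed there. Over all genes 2455 fell and 1765 rose, against 1507 and 1157 without those probe sets, 1351 and 908 for the 3 lowest against the 3 highest densities, and 1362 to 2282 and 1026 to 1627 with an array left out. For single probe sets the 4349 falls and 3246 rises became 1517 to 3922 and 1284 to 2848. In the partner lists 11 fell for the 3 lowest against the 3 highest densities, and 11 to 26 fell and 4 to 8 rose with an array left out. With the cell number itself, per 100K cells, the slopes of CCND1 minus CCND2 (−0.10) and CDK4 minus CDK6 (0.064) had adjusted p = 0.0944 (exact permutation). With an array left out (120 orders) the pair slopes ran from −0.31 to −0.19 for CCND1 minus CCND2, −0.66 to −0.59 for CCND1 minus CCND3 (adjusted p up to 0.0556), −0.47 to −0.33 for CCND2 minus CCND3, 0.35 to 0.51 for CCNE1 minus CCNE2 and 0.070 to 0.18 for CDK4 minus CDK6. Read by 1 probe set, CCND2 minus CCND3 was −0.067 and CCNE1 minus CCNE2 0.11. The causes of these changes were not tested beyond the smaller number of arrays or probe sets. No quadratic term passed without the probe sets of those suffixes, with median centring or with an array left out; the other alternatives were not run for this term. No paired analysis was possible because each density has 1 array. The number of arrays and the unknown signal over background limit the precision.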
